A study of Mus musculus with 186 samples.

Results

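The data describe 49 genes of the Wnt pathway in 186 single cells of the mammary epithelium of adult mice. The genes are a list fixed by name, namely 14 ligands (12 Wnt genes and 2 R-spondins), 18 receptors and co-receptors, 10 inhibitors and feedback genes, and 7 nuclear genes and targets. All 49 were found among the 27179 genes counted, and 43 of them were among the 14801 genes that reached 1 CPM (reads scaled to a library total of 1e+06) in 3 or more cells. Wnt2b, Wnt7a, Wnt9a, Rspo3, Fzd9 and Apcdd1 fell below that filter.

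Wnt ligands are secreted lipid-modified proteins that bind Frizzled receptors together with the co-receptors Lrp5 or Lrp6, which stabilises beta-catenin (encoded by Ctnnb1) so that it can act with Tcf/Lef factors in the nucleus. R-spondins bind Lgr4, Lgr5 and Lgr6 and block the ubiquitin ligases Znrf3 and Rnf43, which otherwise remove Frizzled receptors from the cell surface, while Sfrp proteins and Wif1 bind Wnts outside the cell. In the mammary gland, Wnt4 and Rspo1 are known as paracrine signals of luminal cells that act on neighbouring basal cells in response to ovarian hormones.

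Cells came from glands of untreated adult FVB/NJ mice, 8 in all, and were sorted by the surface proteins CD24 and CD29 as basal (96 cells) or luminal (90 cells) before capture with the Fluidigm C1, in which each cell is lysed and reverse transcribed in a chamber of its own. No cell is tied to a mouse in the labels, so each population counted as 1 sample. There is no replicate of either population, and no test or p-value was computed. PCR plates A and B held the basal cells and plates B and C the luminal cells, so the populations can be compared within a plate on plate B alone. Total counts ranged from 3105 to 2191661 per basal cell and from 6774 to 3784407 per luminal cell. With the thresholds of the study, 72 basal cells (50 from plate A and 22 from B) and 76 luminal cells (24 from plate B and 52 from C) were retained.

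The labels were checked against marker lists. At 50000 reads per cell, the median basal cell held 9 of 10 basal markers, and the median luminal cell held 9 of 10 luminal markers. At least 4 of 10 luminal markers were found in 13 basal cells, and at least 4 of 10 basal markers in 4 luminal cells. In 2 basal cells, cells 82 and 90 on plate B, luminal markers outnumbered basal ones, and this was the case in no luminal cell for basal markers. Cell 82 had 0 basal and 2 luminal markers beside 10 of 20 endothelial ones, while cell 90 had 0 basal and 8 luminal markers. At least 4 markers of endothelial cells, fibroblasts or pericytes were found in 22 basal and 9 luminal cells, mostly fibroblast markers (17 basal and 9 luminal cells), and 0 cells had 4 immune markers. The fibroblast list includes Col5a1, Fbln1 and Serpinf1, which the study lists among its top basal genes. Of the 20 fibroblast markers, 5 had a read in at least 20% of basal cells. In a basal cell, 4 such markers therefore do not by themselves show another cell type. The median number of genes per cell at 50000 reads was 1597 in basal cells of plate B, against 2908.5 on plate A, while luminal cells had 3231.5 (plate B) and 3459 (plate C).

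To show the region upstream of the genes on which the results turn, the 250 bases before the start site were taken from RefSeq on the build GRCm38.p6, which is the assembly of mm10. They are shown for 2 luminal ligands (Wnt4 and Rspo1), 2 basal inhibitors (Wif1 and Nkd2) and Fzd7, a receptor whose window holds a Tcf/Lef word. Capitals mark the Tcf/Lef words CTTTGAT and CTTTGTT, the TATA word TATAAA and the GC box GGGCGG, on either strand.
Wnt4, chr4:137277385-137277634, plus strand: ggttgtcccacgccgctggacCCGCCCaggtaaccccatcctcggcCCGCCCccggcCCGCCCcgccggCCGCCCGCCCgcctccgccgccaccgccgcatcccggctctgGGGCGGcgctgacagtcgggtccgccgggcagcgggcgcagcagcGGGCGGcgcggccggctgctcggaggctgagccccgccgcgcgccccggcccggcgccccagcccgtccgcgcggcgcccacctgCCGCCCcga
Rspo1, chr4:124986180-124986429, plus strand: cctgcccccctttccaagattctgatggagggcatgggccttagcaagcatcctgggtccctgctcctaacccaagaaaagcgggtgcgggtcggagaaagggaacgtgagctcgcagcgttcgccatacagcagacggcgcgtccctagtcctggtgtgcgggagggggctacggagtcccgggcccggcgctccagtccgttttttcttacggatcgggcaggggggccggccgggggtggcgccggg
Wif1, chr10:121033754-121034003, plus strand: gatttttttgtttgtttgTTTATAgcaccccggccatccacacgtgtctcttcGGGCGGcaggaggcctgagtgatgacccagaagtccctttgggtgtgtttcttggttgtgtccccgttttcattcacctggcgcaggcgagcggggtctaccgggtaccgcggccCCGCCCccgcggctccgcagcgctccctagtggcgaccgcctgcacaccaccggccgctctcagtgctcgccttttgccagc
Nkd2, chr13:73847632-73847881, minus strand: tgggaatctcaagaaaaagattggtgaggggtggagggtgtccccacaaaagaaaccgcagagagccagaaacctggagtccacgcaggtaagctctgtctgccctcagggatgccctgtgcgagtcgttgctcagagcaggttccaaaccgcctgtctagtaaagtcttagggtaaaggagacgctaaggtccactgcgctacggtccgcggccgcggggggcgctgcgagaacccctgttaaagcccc
Fzd7, chr1:59481897-59482146, plus strand: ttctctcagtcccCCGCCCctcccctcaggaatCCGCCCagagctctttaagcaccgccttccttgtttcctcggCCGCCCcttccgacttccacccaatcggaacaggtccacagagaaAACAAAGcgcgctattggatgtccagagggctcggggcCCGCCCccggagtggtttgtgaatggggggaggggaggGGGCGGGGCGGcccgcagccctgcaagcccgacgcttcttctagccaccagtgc
Of the 49 genes, 32 had a window that was counted, 42 windows in all, since some genes have several start sites. Any window of Fzd8 or Apcdd1 was left out before counting because of its place in the genome. A Tcf/Lef word was found upstream of 4 of the 32 genes, namely Fzd7 (its first base 130 bases before the start), Wnt5b (71), Wnt11 (51) and a second start site of Tcf7l2 (14). Among all mouse genes with a window of this length, 2490 of 27025 had one of these words upstream (8.06% of the 32851 windows). The set of all windows had no such exclusion, so its values are background and not a like comparison. The 10 genes described below as held by one population that had a window held none. The GC content of the windows was 85.2% for Wnt4, 66.8% for Rspo1, 62.8% for Wif1, 58.4% for Nkd2 and 65.2% for Fzd7, against a median of 52.4% over all windows. The Wnt4 window held 8 GC boxes and that of Wif1 held 2, while 0 were found upstream of Rspo1 and Nkd2 (32.7% of all windows held at least 1).

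Counts were summed over the cells of a population, and luminal CPM was divided by basal CPM on the log2 scale after 1 CPM had been added to both, so that negative ratios are higher in basal cells. A gene was called held by a population when the ratio was at least 1 in its favour over all plates, at least 1 in its favour on plate B alone, and at least 1 in its favour without the cell that held most of its reads there. Only genes passing the filter could be held, 43 of the 49. By this rule 12 of the 49 genes (24.5%) were held by basal cells, against 5.95% of all genes passing the filter. They were 1 ligand (Wnt6), 4 receptors (Fzd3, Lgr4, Lgr5 and Lgr6) and 7 of the 10 inhibitors (Znrf3, Sfrp1, Sfrp2, Dkk3, Wif1, Nkd1 and Nkd2). Luminal cells held 4 of the 49 genes (8.16%), against 15.0% of all genes passing the filter, namely the ligands Wnt4, Wnt5a and Rspo1 and the receptor Fzd4. The list of 49 genes was chosen with earlier results of these data known. The study lists Wif1, Dkk3, Nkd1, Nkd2 and Wnt6 among its top basal genes, and Wnt4 and Rspo1 among its luminal ones. The shares of all genes are given as background, and a difference from them is no test of the list. None of the 7 nuclear genes and targets was held by either population. Without the 2 basal cells whose markers went against their label, the same 16 genes were held and Lrp6 was added in basal cells. Without the 22 basal and 9 luminal cells with markers of other cell types, Nkd1 was no longer held and Axin2, Lrp6, Ror2 and Tcf7 were added in basal cells, while luminal cells held the same 4 genes. On plate B the call of several basal genes rested on 1 cell. When the plate B cell with most reads of the gene was left out of the plate B ratio, 6 of the 12 basal genes (Lgr4, Znrf3, Sfrp2, Dkk3, Wif1 and Nkd2) and all 4 luminal genes were still held, while Wnt6, Fzd3, Lgr5, Lgr6, Sfrp1 and Nkd1 were not (3.55% of all genes were then held by basal and 11.7% by luminal cells).

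By the ratio over all plates alone, 26 of the 49 genes were higher in basal cells by at least 1 on the log2 scale, against 18.2% of all genes passing the filter. In luminal cells 6 were higher, against 28.3%. The median ratio was 0.01 for ligands, -1.27 for receptors, -4.04 for inhibitors and -0.50 for nuclear genes and targets, beside 0.18 over all genes tested. Between the plates of a population, the median size of the difference over the 49 genes was 1.09 in basal cells (plate B against A) and 0.40 in luminal cells (plate C against B), beside 1.57 between the populations. Over the 49 genes, the difference between basal plates exceeded that between the populations for 19, and the difference between luminal plates did for 13. This was so for 0 of the 16 held genes, in part because the rule itself asks for the ratio on plate B.

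**Figure D1:**
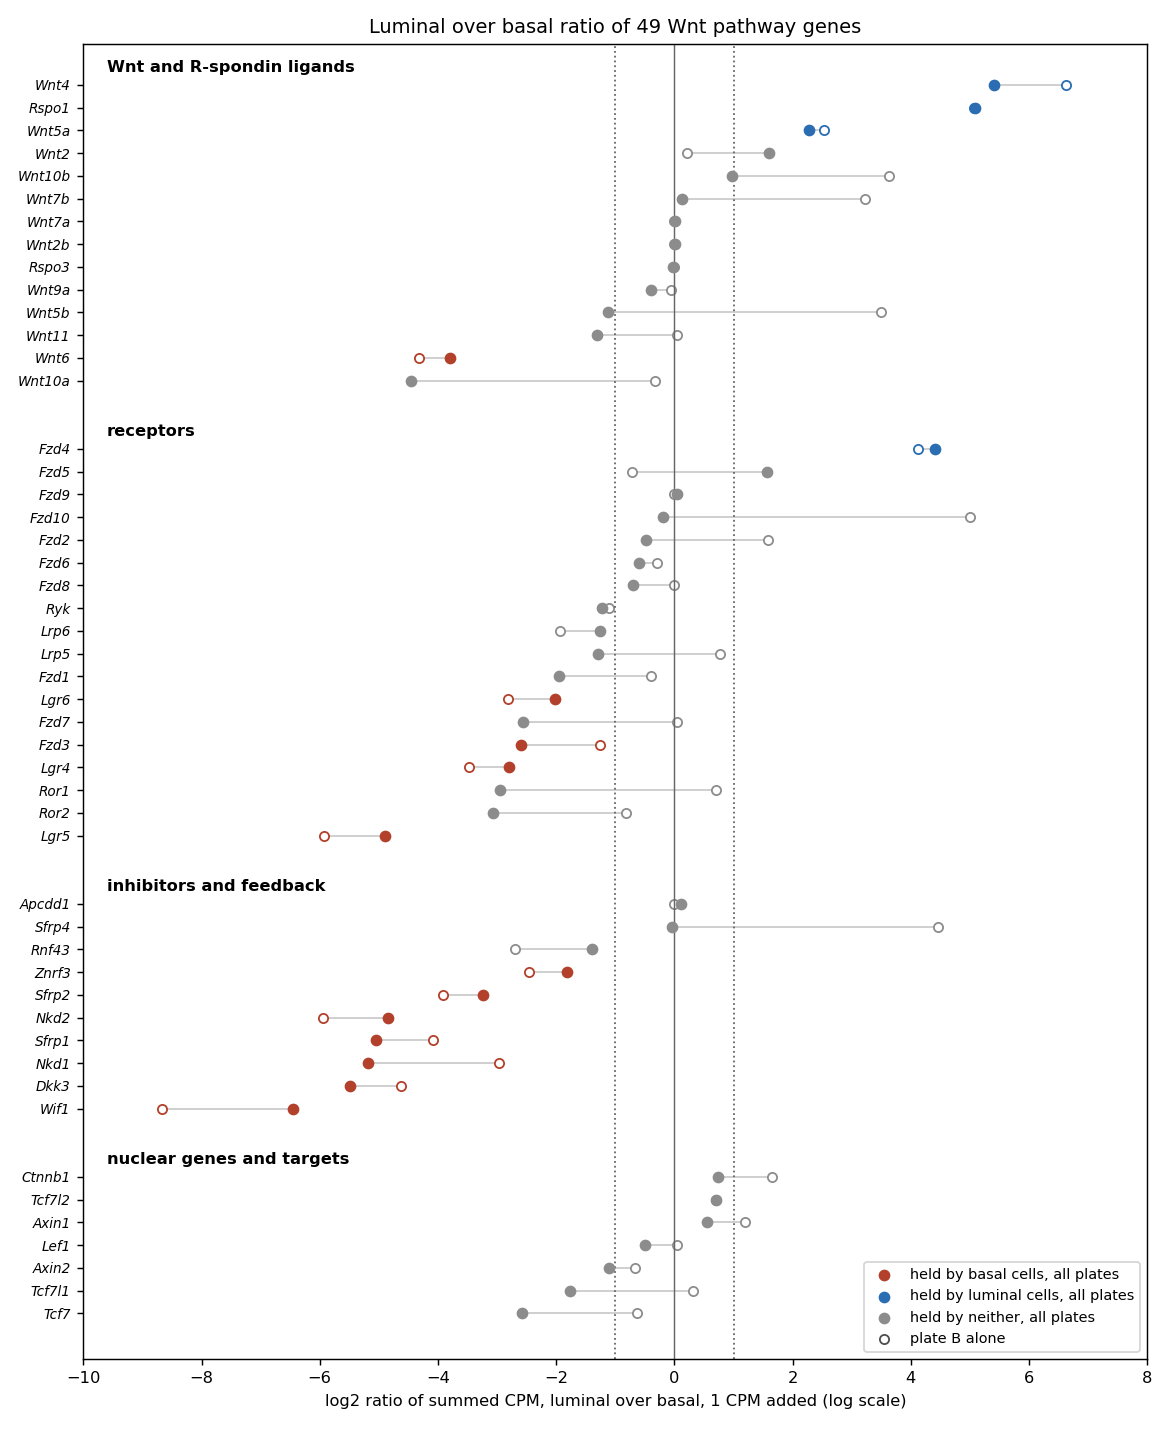
Log2 ratio of summed CPM, luminal over basal with 1 CPM added (x axis), for the 49 genes by class (y axis). Filled points give all plates and open points plate B alone, and colour gives the population that held the gene. Inhibitors lie mostly to the left, down to -6.45 for Wif1, while Wnt4 (5.40) and Rspo1 (5.08) lie farthest to the right with 1 CPM added.

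Wnt4 (chr4:137277635-137299501), a ligand needed for ductal side branching, was the gene with the highest luminal ratio when 1 CPM was added, whereas with 0.1 CPM added Rspo1 (7.97) and Fzd4 (7.28) exceeded it (6.51). Its summed level was 69.4 CPM in luminal cells (95% Poisson interval 67.9 to 70.9) and 0.664 CPM in basal cells (0.502 to 0.863), a log2 ratio of 5.40. Per luminal cell it ran from 0 through a median of 11.4 to 668 CPM, and the highest basal cell had 30.8 CPM with a median of 0. The populations overlap in their lower part, with any read at full depth in 52 of 76 luminal and 12 of 72 basal cells. Basal cell 11, with 10 of 10 basal and 4 of 10 luminal markers, held 28 of the 56 basal reads of Wnt4. The ratio without it was 5.72. Luminal plates B and C gave 101 and 54.5 CPM, and the basal level was 0.978 CPM on plate A and 0.0357 on plate B. At 50000 reads, 36 of 76 luminal cells had a read (47.4%, exact binomial interval 35.8 to 59.2%) and 3 of 72 basal cells (4.17%, 0.868 to 11.7%). These libraries carry no molecular identifiers, so amplified copies count as separate reads. The Poisson intervals therefore cover the counting of reads alone and are too narrow for molecules. The binomial intervals treat cells as independent draws, and neither kind covers differences between mice.

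Rspo1 (chr4:124986401-125009102), the R-spondin that potentiates Wnt signals through the Lgr receptors, was found in luminal cells almost alone. There were 3886 reads in luminal cells (34.0 CPM, 32.9 to 35.1) and 3 reads in basal cells, a 955-fold difference with a counting interval of 327 to 4633 and a log2 ratio of 5.08 with 1 CPM added. The luminal level was similar on both plates, 35.2 CPM on plate B and 33.4 on plate C. A minority of luminal cells carried it, 20 of 76 (26.3%, 16.9 to 37.7%) against 1 of 72 basal cells. The median luminal cell was at 0 CPM and the highest at 405 CPM.

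Wnt5a (chr14:28504543-28527448), a ligand known mainly for signalling outside the beta-catenin branch, was the most widely detected of the ligands. Its level was 156 CPM in luminal cells (154 to 158) and 31.6 CPM in basal cells (30.4 to 32.8), a log2 ratio of 2.27. A read was found in 42 of 76 luminal cells (55.3%, 43.4 to 66.7%) and in 15 of 72 basal cells (20.8%, 12.2 to 32.0%). Unlike Rspo1, it had a clear basal fraction. The median cell was at 42.7 CPM in luminal and 0 in basal cells, and the highest was at 1229 and 664 CPM. Luminal plates B and C were at 154 and 157 CPM, and basal plates A and B at 34.5 and 25.7 CPM.

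Wnt6 (chr1:74754342-74785322) was the ligand held by basal cells, with 1120 reads there (13.3 CPM, 12.5 to 14.1) and 3 reads in luminal cells, a 506-fold difference with a counting interval of 173 to 2459. Its log2 ratio was -3.80, and -2.98 without basal cell 86, which held 47.3% of the basal reads. It was sparse, with a read in 7 of 72 basal cells (9.72%) and 0 of 76 luminal cells (limit from 3 counts, 3.95%). The basal level was 10.5 CPM on plate A, where 6 cells had a read at 50000 reads, and 18.9 CPM on plate B, where 1 cell did. That was cell 86 again, which held 530 of the 531 plate B reads, and without it the plate B ratio was -0.05.

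Wnt10a, the neighbour of Wnt6 on chromosome 1, showed the most basal ratio of the ligands over all plates (-4.45, 21.5 CPM against 0.0262), but not on plate B (-0.32). It was found in 10 of 50 basal cells on plate A and in 1 of 22 on plate B, and in 0 of 76 luminal cells. Of the basal cells, 2 had reads of both genes, out of 7 with Wnt6 (28.6%) and 11 with Wnt10a (18.2%).

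The other ligands rested on few cells. Wnt5b was higher in basal cells over all plates (37.4 against 16.6 CPM, log2 ratio -1.12) and higher in luminal cells on plate B (3.50), where basal cells had no read, and a read was seen in 15 luminal and 7 basal cells. Basal cell 20, with 10 of 10 basal and 7 of 10 luminal markers, contributed 99.7% of the Wnt7b reads in basal cells. A single luminal cell held 99.8% of the luminal reads of Wnt10b. The ratio of Wnt7b was 0.13 over all plates and 2.52 without that basal cell. That of Wnt10b was 0.97 and -1.28 without that luminal cell. For Wnt11, 108 of 129 basal reads came from basal cell 24, and luminal cells had 3 reads. The genes below the filter had 0 to 28 basal and 1 to 4 luminal reads among the ligands (Wnt2b, Wnt7a, Wnt9a and Rspo3), and 26 of the 28 basal reads of Wnt9a came from 1 cell.

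Wnt2, a ligand known from mammary stroma, had a luminal ratio of 1.60 over all plates (2.14 CPM, against 3 basal reads) but of 0.68 without luminal cell 55. Of its 245 luminal reads, 239 (97.6%) lay in the 9 luminal cells with at least 4 fibroblast markers. Luminal cell 55 alone held 170 reads and had 16 of 20 fibroblast and 15 of 20 endothelial markers.

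**Figure D2:**
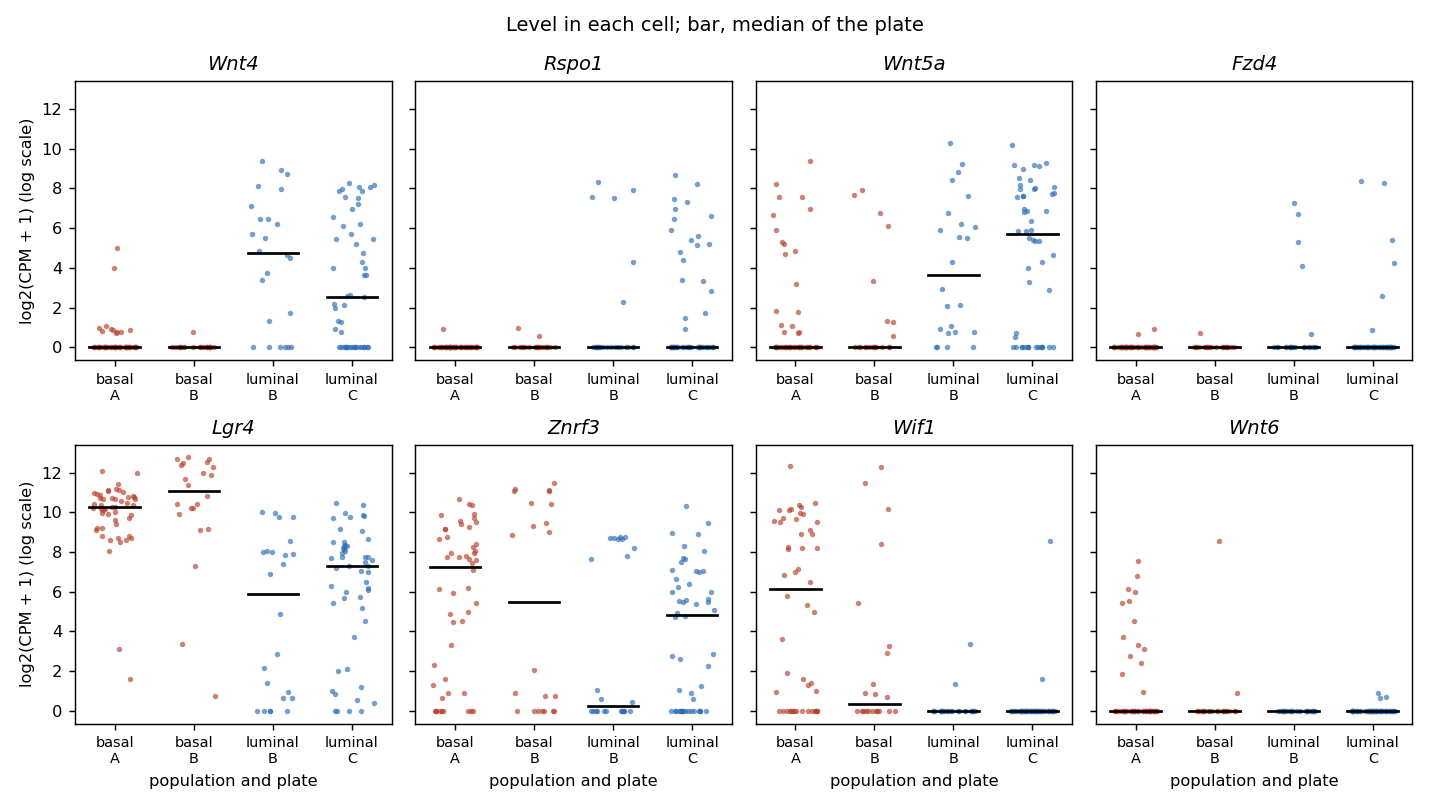
Level of 8 genes in each of 148 cells, as log2 of CPM plus 1 (y axis), by population and plate (x axis), with the median of each plate as a bar. Wnt4, Rspo1, Wnt5a and Fzd4 reach higher levels in luminal cells, while Lgr4, Znrf3, Wif1 and Wnt6 reach higher levels in basal cells.

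Lgr4 (chr2:109917647-110014257), a receptor of R-spondins, was the highest of the receptors in both populations and was seen in nearly every basal cell. The summed level was 1858 CPM in basal cells (1849 to 1867) against 267 CPM in luminal ones (264 to 270.0), for a log2 ratio of -2.79. Basal cells ran from 0.663 through a median of 1336 to 6950 CPM, and luminal cells from 0 through 151 to 1436 CPM. The ranges overlap, with the median basal cell near the top of the luminal range. A read was found in 69 of 72 basal (95.8%, 88.3 to 99.1%) and 53 of 76 luminal cells (69.7%, 58.1 to 79.8%). The basal level was 1370 CPM on plate A and 2836 on plate B, and the luminal level 255 on plate B and 273 on plate C.

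Lgr5 and Lgr6, the other receptors of R-spondins, were lower and patchy. Lgr5 (chr10:115450314-115587780), known as a stem cell marker in several epithelia, was at 39.1 CPM in basal cells (37.8 to 40.5) and 0.350 in luminal ones (0.250 to 0.476), for a log2 ratio of -4.89. Basal cell 92 held 53.1% of the basal reads, and the ratio without it was -3.87. A read was found in 11 of 72 basal cells (15.3%) and 1 of 76 luminal cells, with 8 of the basal cells on plate A and 3 on plate B. Plate B cell 92 held 1752 of the 1768 basal reads of Lgr5 on that plate, and without it the plate B level fell from 63.0 to 0.613 CPM and the plate B ratio was -0.61. Lgr6 (chr1:134983300-135105374) was at 12.1 CPM in basal cells and 2.21 in luminal cells, a log2 ratio of -2.02, with a read in 10 basal and 2 luminal cells. Luminal cell 61, with 11 of 20 fibroblast markers, held 225 of the 253 luminal reads of Lgr6, and without it the ratio was -3.39. All 181 plate B basal reads of Lgr6 came from cell 76, without which the plate B ratio was 0.08, on the luminal side of 0. For both genes the condition on plate B therefore rested on 1 cell. Reads of both were found in 2 basal cells, which are 18.2% of the 11 Lgr5 cells, beside a share of 13.9% for Lgr6 in all basal cells. All 11 with Lgr5 also had Lgr4, a gene with a read in 95.8% of all basal cells.

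Scaled by gene length, as reads per kilobase and library total (RPKM), the level of Lgr4 was 367 in basal and 52.8 in luminal cells, against 8.30 and 0.0743 for Lgr5 and 3.33 and 0.611 for Lgr6. After Lgr4, the next receptors in basal cells were Ryk (35.3 RPKM), Fzd3 (15.8) and Lrp6 (10.7), and in luminal cells Ryk (14.9), Fzd6 (5.87), Fzd4 (5.69) and Lrp6 (4.44). Neighbours in that order, such as Fzd6 and Fzd4, were not compared by a test.

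**Figure D3:**
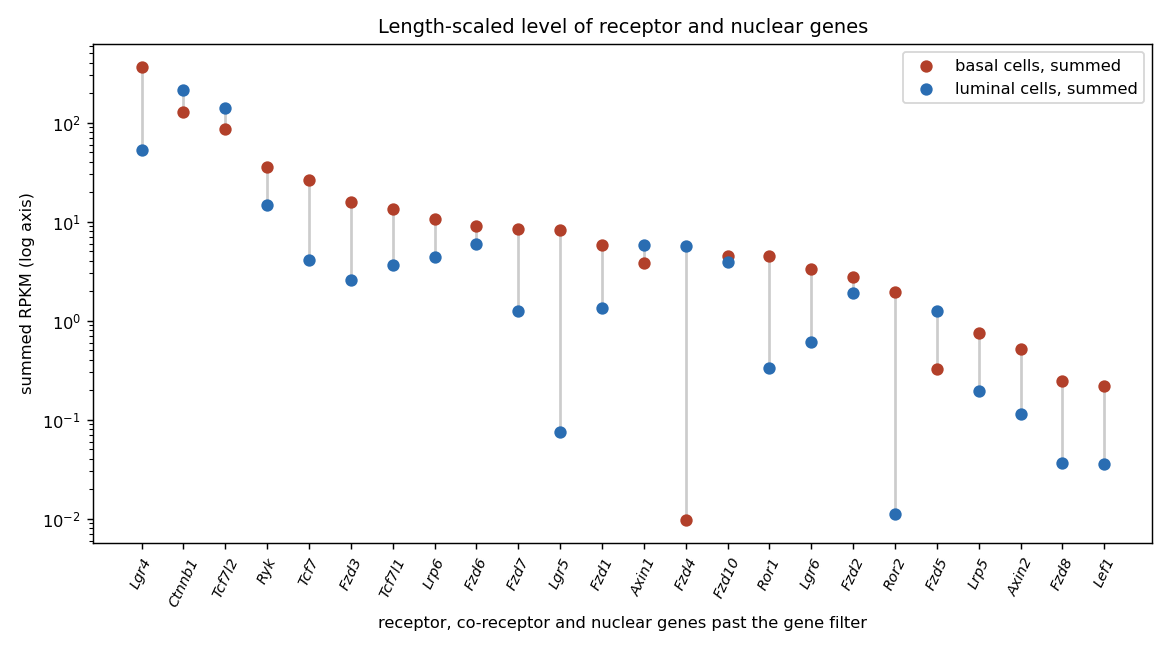
Summed level per length (RPKM, log axis) of the receptor, co-receptor and nuclear genes past the gene filter, in basal and luminal cells. Lgr4 has the highest level in basal cells (367 RPKM) and Ctnnb1 in luminal cells (214 RPKM), while the Frizzled genes other than Fzd3 lie below 10 RPKM in both.

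Among the Frizzled receptors, Fzd3 was held by basal and Fzd4 by luminal cells, the former not under every alternative. Fzd3 (chr14:65192441-65262463) was at 202 CPM in basal (199 to 205) against 32.5 CPM in luminal cells (31.5 to 33.6), which gave a log2 ratio of -2.60 over all plates and of -1.25 on plate B. The call was lost with the mean of CPM per cell in place of sums (ratio -1.96 over all plates), and without plate B cell 64, which held 39.3% of the plate B basal reads and left a plate B ratio of -0.61. The median cell was at 5.03 CPM in basal and 1.38 in luminal cells and the highest at 2809 and 1599 CPM, so the populations overlap through most of their range. A read was found in 32 of 72 basal (44.4%, 32.7 to 56.6%) and 20 of 76 luminal cells (26.3%, 16.9 to 37.7%). Fzd4 (chr7:89404366-89410110) had 2397 reads in luminal (21.0 CPM, 20.1 to 21.8) and 3 in basal cells, a 589-fold difference with a counting interval of 201 to 2859 and a log2 ratio of 4.41.

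Fzd4 is also known as an endothelial receptor, and few luminal cells carried it, 8 of 76 (10.5%, 4.66 to 19.7%), 4 each on plates B and C. Luminal cell 36 held 40.8% of the luminal reads, and the ratio without it was 3.73. The 9 luminal cells with at least 4 fibroblast markers held 32.8% of the luminal reads, and the 4 with at least 4 endothelial markers held 4.00%. Over its counted length Fzd4 overlaps Tmem135, and Lgr5 overlaps A930009A15Rik, so that reads of these pairs may not be separable where counting did not use strand. The same holds for Wnt2b with St7l, Wnt5b with Fbxl14, Wnt7b with AU022754, Rnf43 with 1110028F11Rik, Tcf7 with Skp1 and Tcf7l1 with Gm15401.

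Basal levels of Fzd7, Ror1 and Ror2 exceeded the luminal ones by more than 1 on the log2 scale over all plates but not on plate B. Fzd7, a receptor linked to mammary stem cells, was at 40.4 against 5.99 CPM, the log2 ratio being -2.56 with all plates and 0.05 for plate B, and it was found in 16 of 50 plate A basal cells, 4 of 22 plate B basal cells and 4 of 76 luminal cells. Ror1 and Ror2, receptor tyrosine kinases that bind Wnt5a, had ratios of -2.95 and -3.07 over all plates, against 0.70 and -0.83 for plate B. They were seen in 6 and 4 basal cells, and 80.5% of the Ror2 reads in basal cells were from cell 11. The basal cells of plate B were also those with the fewest genes at equal depth, and the part of this in the plate difference was not tested.

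Co-receptors and the remaining receptors differed less. Lrp6 and Ryk, a Wnt-binding pseudokinase, had ratios of -1.25 and -1.23 over all plates, -1.93 and -1.11 for plate B, but of -0.98 and -0.85 without the basal cell with most reads, and so missed the call. Reads were found in 24 basal and 28 luminal cells for Lrp6, and in 38 and 30 for Ryk. For Lrp5 the ratio was -1.29, and 0.32 without a basal cell that held 84.8% of the basal reads. Fzd6 had a ratio of -0.60 and was seen in more luminal (25 of 76, 32.9%, 22.5 to 44.6%) than basal cells (12 of 72, 16.7%, 8.92 to 27.3%), so that its share and its summed level went in opposite directions, with intervals of the shares that overlap. Basal cell 82, a cell with 0 basal, 2 luminal and 10 of 20 endothelial markers, held 29.0% of the basal reads of Fzd6, and without it the ratio was -0.13.

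The summed levels of Fzd1, Fzd2, Fzd5, Fzd8 and Fzd10 rested on few cells. Basal cell 1 contributed 90.2% of the Fzd2 reads in basal cells and luminal cell 70 held 86.2% of the luminal ones. For Fzd1, basal cell 43 held 71.9% of the basal reads, and the ratio went from -1.95 to -0.28 without it. Cells with at least 4 fibroblast markers held 95.6% of the basal and 63.6% of the luminal reads of Fzd1. The ratio of Fzd5 over all plates was 1.57 but -0.72 for plate B, and that of Fzd10 was -0.19 and 5.01. Fzd8 had 69 basal reads, 67 of them in 1 cell, and 14 luminal reads, and Fzd9 had 0 basal and 3 luminal reads.

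With 1 CPM added, the 4 largest basal ratios of the 49 genes were those of the inhibitors Wif1, Dkk3, Nkd1 and Sfrp1, while with 0.1 CPM added Sfrp1 (-5.51) was passed by Wnt6 (-6.73) and Lgr5 (-6.45), among others. Wif1 (chr10:121034004-121100642), a secreted protein that binds Wnts, was at 448 CPM in basal cells (443 to 452) against 4.12 CPM in luminal ones (3.76 to 4.51), for a log2 ratio of -6.45. Luminal cell 63 accounted for 467 of the 471 luminal reads. It had 9 of 10 basal markers beside 9 of 10 luminal ones, and the ratio was -8.76 when it was left out. A read was found in 34 of 72 basal cells (47.2%, 35.3 to 59.4%) and 3 of 76 luminal cells (3.95%, 0.822 to 11.1%). Basal cells ran from 0 through a median of 4.66 to 5193 CPM, so the gene was high in some basal cells and absent from the reads of others. On plate A 29 of 50 basal cells had a read and on plate B 5 of 22, at summed levels of 458 and 427 CPM. At full depth the 17 basal cells with at least 4 fibroblast markers all had a read of Wif1, and they held 41.9% of its basal reads. The fibroblast list includes basal genes, and whether these reads came from another cell type was not tested.

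Sfrp1 and Sfrp2 encode secreted Frizzled-related proteins, which bind Wnts. Sfrp1 (chr8:23411383-23449632) was at 105 CPM in basal (103 to 108) against 2.21 CPM in luminal cells (1.95 to 2.50), which gave a log2 ratio of -5.05. The basal level was 109 CPM on plate A and 98.9 on plate B, where cell 73 held 2714 of the 2773 reads. Without that cell the plate B level was 2.22 CPM, below the 4.88 CPM of luminal cells on that plate, so that the plate B ratio turned to 0.87 and the call was lost. Sfrp1 was found in 15 of 72 basal and 3 of 76 luminal cells. Sfrp2 (chr3:83765750-83774314) was seen in more cells, 28 of 72 basal (38.9%, 27.6 to 51.1%) and 10 of 76 luminal ones (13.2%, 6.49 to 22.9%). Its level was 68.8 CPM in basal cells against 6.40 CPM in luminal ones, a ratio of -3.24, and -2.49 without basal cell 70, which held 42.1% of the basal reads. On plate B cell 70 held 74.1% of the basal reads, and the plate B ratio moved from -3.92 to -2.08 without it. Of the basal reads of Sfrp2, 30.5% lay in cells with at least 4 fibroblast markers.

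Dkk3 (chr7:112116019-112159482), a secreted glycoprotein of the Dickkopf family, had 3801 reads in basal cells (45.1 CPM, 43.7 to 46.5) and 3 in luminal cells, a 1718-fold difference with a counting interval of 588 to 8336. A read was found in 17 of 72 basal cells (23.6%, 14.4 to 35.1%) and in 0 of 76 luminal cells (limit from 3 counts, 3.95%). Its reads were spread over basal cells, since the cell with most reads held 15.8% of them and the ratio without it was -5.26, beside -5.49 with it.

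Nkd1 and Nkd2 encode Naked cuticle proteins, which bind Dishevelled inside the cell. Nkd1 (chr8:88521342-88594887) had 3017 basal reads (35.8 CPM) and 2 luminal reads, a 2046-fold difference with a counting interval of 566 to 16900. Nkd2 (chr13:73818534-73847631) was at 82.5 CPM in basal (80.6 to 84.5) against 1.92 CPM in luminal cells (1.67 to 2.19), which gave a log2 ratio of -4.84. Luminal cell 52 held 215 of the 219 luminal reads of Nkd2, and without it the ratio was -6.33. Nkd1 was found in 8 and Nkd2 in 16 of 72 basal cells, with 1 cell common to both (12.5% of the Nkd1 cells, beside 22.2% of all basal cells with Nkd2). Basal levels on plates A and B were 50.3 and 6.77 CPM for Nkd1 and 93.6 and 60.3 CPM for Nkd2. Plate B cell 95 held 187 of the 190 plate B reads of Nkd1, and the call was lost without it (plate B ratio -0.15). Plate B cell 64 held 1538 of the 1690 plate B reads of Nkd2, and without it the plate B level was 5.68 CPM and the plate B ratio -2.74, still past 1 in size.

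Znrf3 (chr11:5276329-5444847), which removes Frizzled receptors and is itself a Wnt target, was the most widely detected inhibitor in both populations. Its level was 462 CPM in basal (457 to 467) against 131 CPM in luminal cells (129 to 133), which gave a log2 ratio of -1.81, the smallest among the basal-held genes. The median cell was at 154 CPM in basal and 6.02 in luminal cells, with 47 of 72 (65.3%, 53.1 to 76.1%) and 38 of 76 cells (50.0%, 38.3 to 61.7%) having a read, shares whose intervals overlap. Its basal level was higher on plate B (811 CPM) than on plate A (288), as it was for Lgr4. Every one of the 47 basal cells with a read of Znrf3 also had one of Lgr4, which was found in 95.8% of all basal cells.

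The other inhibitors were not held. Rnf43, the paralogue of Znrf3, was at 21.6 against 7.61 CPM with a ratio of -1.39, and of -0.85 without basal cell 64, and it was seen in 9 basal and 12 luminal cells. Sfrp4 had nearly equal levels (37.6 and 36.7 CPM, ratio -0.04), but basal cell 56 accounted for 3170 of the 3171 basal reads and had 17 of 20 fibroblast markers. In luminal cells, 99.9% of the Sfrp4 reads came from the cells with at least 4 fibroblast markers. Those cells were also mostly positive for markers of their sorted population, with 8 of 10 basal markers in basal cell 56 and 3 to 10 of 10 luminal markers in the 5 luminal cells. Apcdd1 had 0 basal and 9 luminal reads.

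**Figure D4:**
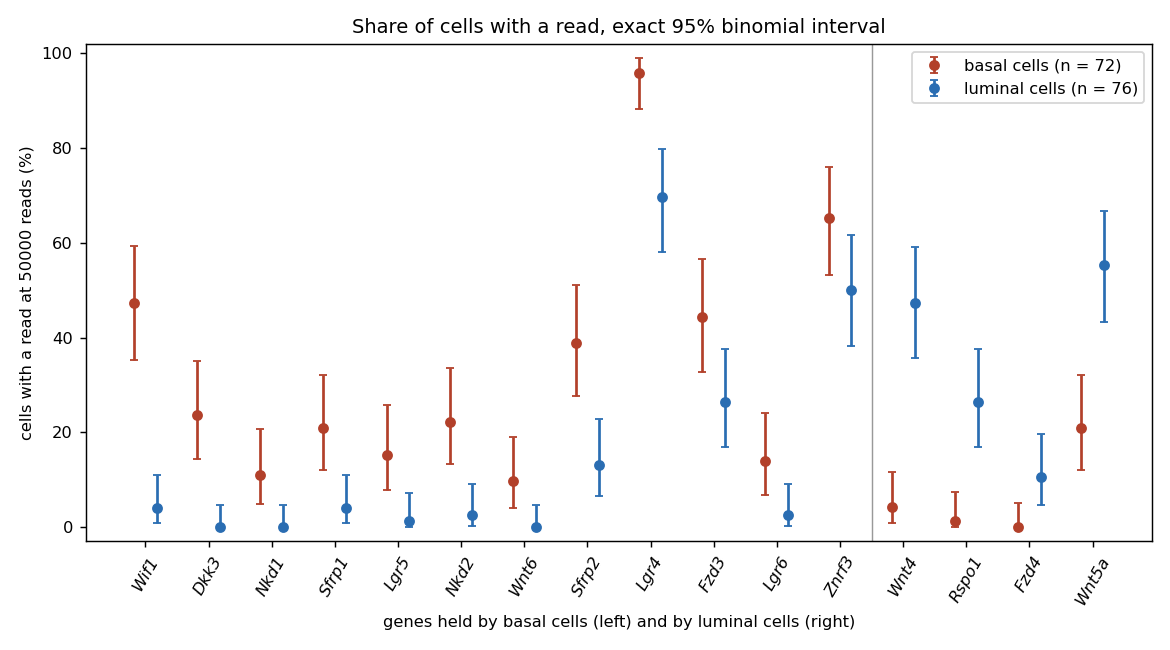
Share of cells with a read at 50000 reads per cell (y axis, %) for the 16 held genes (x axis), with exact 95% binomial intervals, in 72 basal and 76 luminal cells. Basal shares run from 9.72% (Wnt6) to 95.8% (Lgr4) among the basal-held genes, and luminal shares from 10.5% (Fzd4) to 55.3% (Wnt5a) among the luminal-held ones.

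None of the nuclear genes met the 3 conditions, and they differed among themselves in their ratios. Ctnnb1 was at 466 CPM in basal cells against 776 CPM in luminal ones (ratio 0.74), with a read in 54 of 72 and 64 of 76 cells, and medians per cell of 193 and 508 CPM. Its basal level was 606 CPM on plate A and 184 on plate B, which placed its ratio on plate B at 1.64. Tcf7l2, the Tcf factor most widely detected here, was at 389 and 633 CPM (ratio 0.70, and 0.70 on plate B), with a read in 61 basal and 67 luminal cells. Axin1, a scaffold of the beta-catenin destruction complex, was at 14.5 and 21.9 CPM.

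Tcf7, Tcf7l1 and Axin2 had basal ratios past 1 over all plates, which were below 1 in size on plate B. Tcf7 was at 58.9 against 9.06 CPM (ratio -2.57, and -0.63 on plate B) and was detected in 26 of the 50 plate A basal cells, 3 of the 22 from plate B and 6 of 76 luminal cells. Its share was 40.3% in basal (28.9 to 52.5%) and 7.89% in luminal cells (2.95 to 16.4%), and it was held by basal cells without the cells with markers of other types and with the mean of CPM per cell. Tcf7l1, known mainly as a repressor, was at 37.2 against 10.2 CPM (ratio -1.77, and 0.32 on plate B). Axin2, the target most often used as a readout of beta-catenin activity, was barely detected, with 187 basal and 56 luminal reads (2.22 and 0.490 CPM), a ratio of -1.11 (-0.66 on plate B, and -0.84 without basal cell 40), and a read at equal depth in 2 basal and 1 luminal cells. The luminal cells with at least 4 fibroblast markers held 57.1% of its luminal reads, and the basal ones 11.8% of its basal reads, and its call was gained without the cells with markers of other types. At these counts a difference in its share of cells was not detectable. All 45 basal reads of Lef1 came from basal cell 20, which had 7 of 10 luminal markers, and luminal cells had 10 reads.

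Among 52 further pathway genes, of which 37 passed the filter, 5 were held by basal and 4 by luminal cells (9.62% and 7.69%). The shares of all genes passing the filter were 5.95% and 15.0%. The basal ones were Sostdc1, a secreted Wnt and BMP antagonist (141 against 5.51 CPM, log2 ratio -4.44), the corepressors Tle4 (-3.11) and Tle1 (-2.89), Tnfrsf19 (-1.93) and Dvl3 (-1.40). Luminal cell 63, which held most luminal reads of Wif1, also held 628 of the 630 luminal reads of Sostdc1. The luminal ones were Sfrp5 (0 basal and 684 luminal reads), Apc (88.9 against 300.1 CPM, log2 ratio 1.74), Dvl1 (1.66) and Tle2 (1.62). Beside Sostdc1 and Sfrp5, the secreted inhibitors Dkk1, Dkk2, Dkk4, Frzb, Sost and Notum of the 52 genes were held by neither population. Dkk1, Dkk4, Frzb and Sost did not pass the filter. The direction of Dvl1 turned between plates, with 12.6 CPM in basal cells of plate A against 8.50 in luminal cells of plate C (ratio -0.51), but 0.428 against 72.3 CPM on plate B (5.68). The median ratio over the 52 genes was -0.01.

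**Figure D5:**
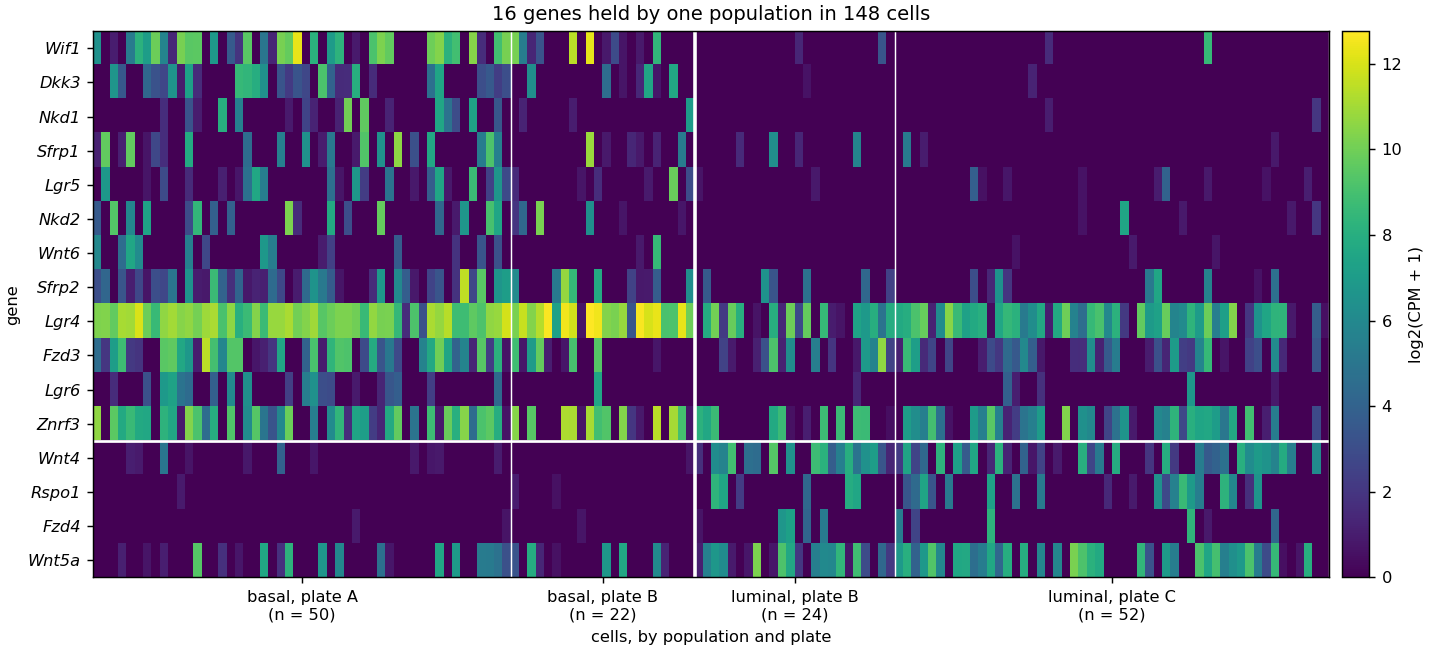
Level (log2 of CPM plus 1, colour) of the 16 held genes (rows) in each of the 148 cells (columns), by population and plate. Lgr4 forms an almost unbroken band over basal cells and had reads in 67 of 76 luminal cells at full depth. Znrf3 had reads in 56 of 72 basal and 48 of 76 luminal cells, and Fzd3 in 51 and 48. The other genes had reads in part of the cells of the population that held them.

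Counted per cell at 50000 reads, at least 1 of the 14 ligands was seen in 40 of 72 basal cells (55.6%) and 62 of 76 luminal cells (81.6%), with medians of 1 and 2. On plate B these were 6 of 22 basal and 18 of 24 luminal cells, while plate A had 34 of 50 basal cells (68%) and plate C 44 of 52 luminal cells. Basal cells of plate B had a median of 1597 genes at this depth, against 3231.5 in luminal cells of that plate. The part of this in the difference was not tested. For inhibitors the order was the other way round, with a median of 2 of 10 in basal and 1 in luminal cells, and 0 in 6 basal and 25 luminal cells. The number of Frizzled genes per cell had a median of 1 in both. At least 1 of the 4 luminal-held genes was found in 19 basal and 60 luminal cells, and 0 basal cells had more than 1 of them, against 35 luminal cells. These 4 genes were chosen by their reads in the same cells, so this count restates the rule and lends it no support.

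Pairs of genes detected in the same cells are given beside the share of each gene over all cells of the population. Wnt4 and Wnt5a were both seen in 25 luminal cells, which are 69.4% of the 36 Wnt4 cells, beside 55.3% of all luminal cells with Wnt5a. Rspo1 was seen in 19.4% of the Wnt4 cells (7 cells) and 28.6% of the Wnt5a cells (12 cells), beside 26.3% of all luminal cells. In basal cells Wif1 was seen in 68.8% of the 16 Nkd2 cells (11 cells) and 41.2% of the 17 Dkk3 cells (7 cells), beside 47.2% of all basal cells. None of these pairs was tested.

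Across the 76 luminal cells at equal depth, each of the 49 genes found in at least 20% of luminal cells was compared with the number of detected markers of mature luminal cells, the hormone-sensing type, and of luminal progenitors. The size of Spearman's rho reached 0.4 for 3 genes. With mature luminal markers it was 0.41 for Wnt5a (0.15 on plate B, 0.54 on plate C) and 0.40 for Wnt4 (0.27 and 0.48). Tcf7l2 had a rho of 0.45 with luminal progenitor markers (0.49 and 0.41). Rspo1 lay just under the limit of 0.4 set for naming, with a rho of 0.399 with luminal progenitor markers, and 0.35 with the number of genes detected per cell. These are descriptions over cells that share plates and are not replicates, and such weak correlations in sparse counts are no finding.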

How the data were processed

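Single cells were captured on the Fluidigm C1, and the deposited files hold raw counts per gene for 186 cells. The authors aligned read pairs to the mouse genome mm10 with Subread and counted them per gene with featureCounts and the built-in RefSeq annotation of Rsubread. Versions, the treatment of strand and of reads that map to several genes are not given in the sources used here. Of the 49 genes, 8 overlap another counted gene. The series-wide count table did not enter the analysis.

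Of 27179 identifiers, 25275 were paired with a symbol through the RefSeq annotation of GRCm38.p6, and the 1904 others held 1.94% of the counts and were left out, as were 15 mitochondrial and 89 ribosomal protein genes. Basal cells with at least 50000 reads and 1000 genes and luminal cells with at least 100000 reads and 1500 genes were kept, 148 in all. Genes with at least 1 CPM in at least 3 cells were tested against the rule for held genes. Shares of cells were taken after thinning each cell to 50000 reads. Sums have exact Poisson intervals and shares exact Clopper-Pearson intervals, at 95%. Beside shares of 0, the limit from 3 counts is printed. Doublets were not called by a program, since capture sites had been inspected by microscope. Groups came from the labels, and no test was run because the labels tie no cell to an animal.

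The members and lists were chosen with earlier results of these data known. Values in full are given for genes held by a population, and other genes by short values. The rule was tested on simulated counts for 14801 genes in which a log2 change of 2 was given to 200 genes. It recovered 100% of these and made 0 false calls, but the simulated cells varied by sampling alone. Other settings concerned filters, gene removal, scaling, the added CPM, plates and single cells. Python 3.11.15, numpy 2.4.6, pandas 2.3.3, scipy 1.17.1 and R 4.3.3 with edgeR 4.0.16 (for TMM factors alone) were used.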

Additional observations from a re-analysis of the deposited data

Results flagged for a closer look

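Cells below the read and gene thresholds took no part in the comparisons above, and they carried reads of some of the 49 genes. In the 24 such basal cells, 10 of the genes had more than 3 reads, led by Lgr4 with 93 reads over 22 cells and Ctnnb1 with 62 reads over 18 cells. Reads of Wif1 (12), Znrf3 (12), Sfrp2 (13) and Fzd3 (5), genes held by basal cells, were among them. In the 14 such luminal cells, 5 of the genes had more than 3 reads, namely Ctnnb1 (113), Fzd3 (110), Tcf7l2 (9), Lgr4 (5) and Wnt5a (4).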

How the results depend on the processing

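The count of genes held by basal cells was 12 and ran from 6 to 18 over 14 alternatives, and that of genes held by luminal cells was 4 and ran from 4 to 5. The share of all genes held can change with the setting as well, and it is given above only for the lowest basal count. The other counts therefore describe the rule and cannot be read as results about the 49 genes. The lowest basal count (6) came when the plate B ratio was taken without the plate B cell with most reads, where Fzd3, Lgr5, Lgr6, Nkd1, Sfrp1 and Wnt6 were lost and the plate B ratios of Lgr6 (0.076) and Sfrp1 (0.87) turned to the luminal side. With 10 CPM added the count was 9 (Lgr6, Nkd1 and Wnt6 lost), and the highest came without the condition on plate B or with plates A and C in its place, where Fzd7, Ror1, Ror2, Tcf7, Tcf7l1 and Wnt10a were gained. With 0.1 CPM added the counts were 16 and 5, the luminal gain being Wnt2. With the mean of CPM per cell, Tcf7 was gained and Fzd3 lost. The 4 luminal genes were held under every alternative run for that count, and the held genes other than Lgr6 and Sfrp1 kept the sign of their ratio under every alternative run for it. TMM factors moved the median ratio over all genes from 0.18 to 0.03 and that of the 49 genes from -1.12 to -1.33, and the basal count to 15 (Lrp6, Rnf43 and Ryk gained). Ratios of low genes depend on the added CPM, as for Rspo1 (2.13 to 7.97) and Dkk3 (-8.48 to -2.46), and the alternatives moved 130 of 208 ratios of held genes (beside the 2 that turned) and 49 of 160 of their shares by more than the counting interval. Genes read in few cells cannot be ranked at this number of cells. The alternatives without cells against their label, without the plate B cell with most reads, and without the cell with most reads in the lower population were added once the data had been seen. No paired analysis was possible because shared cell numbers only name cells, and no test was run.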
